A study of Mus musculus with 4 samples.

Results

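The genes described here carry out DNA replication and supply its nucleotides. They comprise 49 genes, given by name, and all 49 were found on the arrays, on 78 of 41174 probes and among 27660 genes or transcripts in all. Older symbols of the array design, such as Cdc45l for Cdc45, were counted as the same gene. For every gene the probe with the highest mean level was used, and each of these 49 probes was well above background on all 4 arrays, so no gene was lost to a filter on low values.

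Gene expression was measured in 3 neural progenitor cell (NPC) lines and in a tissue pool called Mixture, each on 1 single-colour Agilent array. The NPC lines were NS21 (strain 129/Ola, from embryonic stem cell line 21), NS195R (129/Sv, from line 195R) and NSEB5-2C (129/Ola, from line EB5). Mixture joined equal masses of RNA from liver, lung, heart, kidney, spleen and thymus, and from day 11 embryo, of Swiss Webster mice. The study asked which genes, transcription factors above all, were higher in NPC lines than in Mixture. No agent or engineered allele is labelled for the arrays used as NPC lines, and the sources used here do not say whether a line is a single clone. No line is Swiss Webster, so a strain difference and a cell type difference cannot be told apart beside Mixture.

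The labels were checked against marker genes. A source label of Mixture names NPC cells given doxycycline. Markers of heart, kidney, liver, lung, T cells and B cells were counted if well above background on at least 1 array. All 46 counted markers were so in Mixture. In the NPC lines 9, 11 and 7 of the 46 were so in NS21, NS195R and NSEB5-2C. In no line were 31 of them well above background, so these entered the count through Mixture alone. Of 8 heart genes on the arrays 7 were counted, and of 9 T cell genes 8. The progenitor genes Nes, Vim and Sox9 were well above background on all arrays, with mean log2 ratios to Mixture of 2.67, 1.81 and 2.89. Sox2, another progenitor gene, was not well above background in NS21. Between 23983 and 25690 of 43379 spots were well above background per NPC array, against 26840 for Mixture.

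In dividing cells the origin recognition complex marks replication origins, and the loading factors CDC6 and CDT1 place the ring-shaped MCM helicase there. The kinase CDC7, with its partner DBF4, and cyclin E then help to switch the helicase on, together with CDC45 and the GINS complex. Polymerases, a sliding clamp and its loader copy the strands, while ribonucleotide reductase and thymidylate enzymes supply the nucleotides. Neural progenitors in culture divide, and many replication genes are known targets of the E2F transcription factors. Thymus, spleen and embryo also contain dividing cells.

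Because E2F factors are known to act at such promoters, the start regions of the genes were searched for an E2F-type motif in 4 spellings, TTTCCCGC, TTTCGCGC, TTTGCCGC and TTTGGCGC, on both strands. RefSeq windows of build GRCm38.p6, running from 250 bases before to 50 bases after the gene start, were at hand for 40 of the 49 genes. Of these 40 genes 13 (32.5%) held a match, against 4.1% of the 12620 tested genes with a window and 2.26% of all 32851 windows. Among related lists the share was higher in 33 other replication fork genes (42.4%) and in 12 genes of the E2F and RB family (41.7%). It was lower in 33 kinetochore and mitosis genes (3.03%) and in 17 other nucleotide enzymes (0%). The 13 replication genes with a match were Mcm3, Mcm5, Mcm6, Mcm7, Orc1, Orc3, Cdc6, Cdt1, Gins3, Rfc3, Pola1, Pold1 and Lig1. CCAAT, in either direction, occurred in 57.5% of the 40 genes and in 42.4% of the tested genes. Both motifs can overlap other motifs, and a match is a run of letters, not a bound site. Below are the 150 bases before the start for Mcm6, which held the most matches, for Rfc3, which passed the test against Mixture, and for 1 further gene with a match from each of the origin recognition complex (Orc1), the GINS complex (Gins3), the helicase (Mcm5) and the primase-polymerase (Pola1). Orc3, Mcm3 and Mcm7 also held matches and are not printed. Capitals mark the motif as read on the gene strand, so that a match on the other strand appears as its reverse complement. The regions are chr1:128359706-128359855, minus strand, for Mcm6, chr5:151651209-151651358, minus strand, for Rfc3, chr4:108579304-108579453, plus strand, for Orc1, chr8:95633409-95633558, plus strand, for Gins3, chr8:75109359-75109508, plus strand, for Mcm5, and chrX:93632156-93632305, minus strand, for Pola1.
Mcm6: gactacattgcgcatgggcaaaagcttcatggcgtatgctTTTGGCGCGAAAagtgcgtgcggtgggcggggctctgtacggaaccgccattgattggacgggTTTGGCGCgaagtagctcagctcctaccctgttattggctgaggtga
Rfc3: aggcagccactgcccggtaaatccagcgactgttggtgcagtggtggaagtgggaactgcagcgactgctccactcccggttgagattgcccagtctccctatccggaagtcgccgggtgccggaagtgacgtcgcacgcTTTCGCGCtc
Orc1: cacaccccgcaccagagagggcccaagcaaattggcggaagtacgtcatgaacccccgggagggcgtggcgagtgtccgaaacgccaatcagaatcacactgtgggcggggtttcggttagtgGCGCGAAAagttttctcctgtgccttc
Gins3: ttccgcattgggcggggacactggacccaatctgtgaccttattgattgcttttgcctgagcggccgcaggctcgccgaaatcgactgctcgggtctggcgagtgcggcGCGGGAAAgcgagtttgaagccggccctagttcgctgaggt
Mcm5: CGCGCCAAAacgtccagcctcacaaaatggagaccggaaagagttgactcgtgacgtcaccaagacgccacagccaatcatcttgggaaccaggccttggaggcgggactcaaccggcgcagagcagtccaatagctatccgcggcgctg
Pola1: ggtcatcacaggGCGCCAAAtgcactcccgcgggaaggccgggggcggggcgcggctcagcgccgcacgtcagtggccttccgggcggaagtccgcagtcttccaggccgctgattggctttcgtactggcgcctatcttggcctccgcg

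In Mcm6 a match on the gene strand at 110 to 103 bases before the start overlapped one on the other strand, which makes the longer run of capitals. Another lay 47 to 40 bases before the start. Mcm5 also held an overlapping pair, at 153 to 142 bases before the start, of which the displayed stretch shows the part nearer to the gene. For Rfc3 the matches sat on either side of the start, 10 to 3 bases before it and 1 to 8 bases after it. The 13 genes with a match had a median log2 ratio of the NPC lines to Mixture of 1.31, with a range of 0.88 to 2.78. The 27 genes with a window and no match had a median of 1.90 and a range of 1.08 to 3.06. The ranges overlap, and having a match did not go with a larger ratio.

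**Figure D1:**
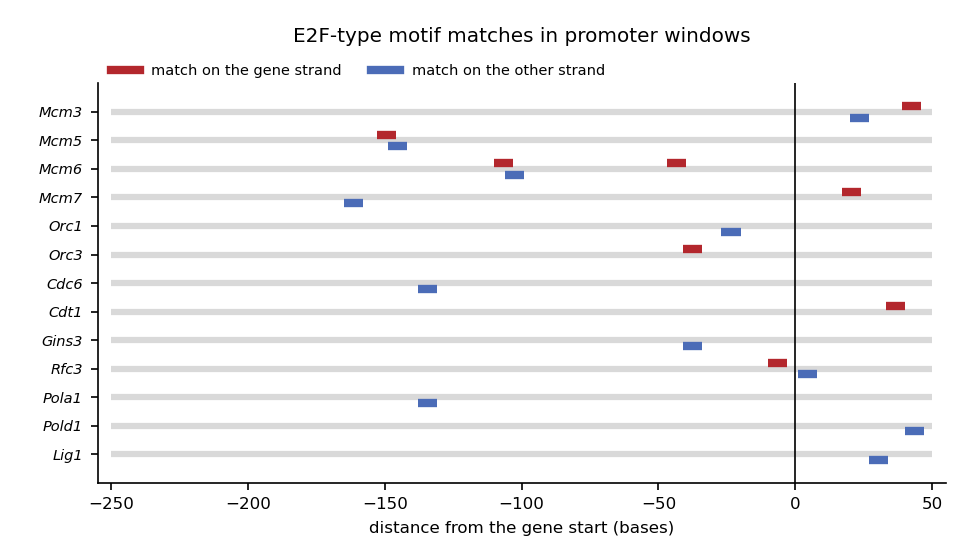
Positions of E2F-type motif matches in the 13 replication genes that hold one. The x axis is the distance in bases from the gene start, grey bars are the windows searched, and the colour gives the strand. Matches lie on both sides of the start, and Mcm6 holds 3.

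Replication genes lay above Mixture in the NPC lines almost without exception. In 48 of the 49 genes all 3 lines exceeded Mixture, and in 1, Prim2, all 3 lines were below it. These ratios share the single Mixture array. Over all 19823 genes tested, 43% had every line above Mixture and 28.8% had every line below. The mean log2 ratio of the NPC lines to Mixture had a median of 1.70 over the 49 genes, a 3.25-fold ratio, with quartiles of 1.45 and 2.11. The median over all genes tested was 0.44. Over the 12730 genes well above background on all arrays it was 0.71, with quartiles of -0.14 and 1.37, so the replication genes had a median 0.99 above that of these measurable genes. In bulk RNA a larger share of dividing cells and more RNA per cell cannot be told apart.

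**Figure D2:**
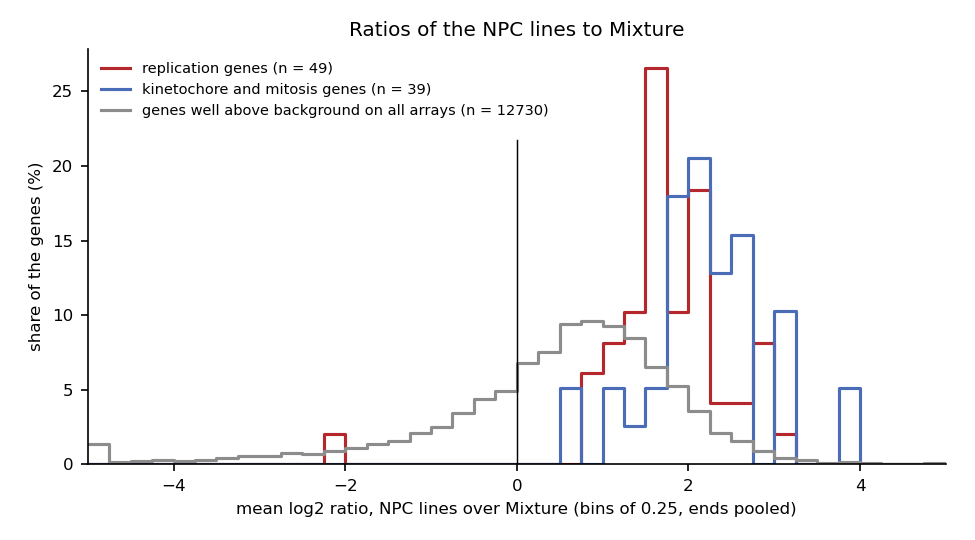
Distribution of the mean log2 ratio of the NPC lines to Mixture (x axis, bins of 0.25) as a share of the genes in percent (y axis). The line of the 49 replication genes peaks to the right of that of 12730 genes well above background on all arrays, and Prim2 is the only replication gene left of 0.

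The test set 3 lines against 1 array. By limma, with Benjamini-Hochberg adjusted p under 0.05, 2 replication genes were higher in the NPC lines (Gins2 and Rfc3), where 0.948% of all genes tested were called higher. None was lower (0 of 49), where 8.91% of all genes tested were called lower. At an unadjusted limma p under 0.05, 36 of the 49 were higher (15.6% of all genes tested) and 1 was lower (15.4%). The adjusted p of the 49 ranged between 0.0413 and 0.301, and 12 had an adjusted p under 0.1. Without any 1 of the lines limma called 0 replication genes, with 16 or 17 higher at an unadjusted p under 0.05, and the smallest adjusted p was then 0.137 without NS21, 0.0987 without NS195R and 0.135 without NSEB5-2C. The lone Mixture array has no spread of its own, and limma gives it the spread of the lines.

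The size rule of the study set a floor of 1.5-fold over Mixture, in NSEB5-2C plus either NS195R or NS21. It was met by 48 replication genes, and by 36.1% of all genes tested or 49.1% of those well above background on all arrays. In all 3 lines 47 reached 1.5-fold (27.2% of all genes tested). Besides Prim2, Dut did not, at a log2 ratio of 0.48 in NS195R. Since measurable genes as a whole lay above Mixture, the rule was also applied beyond each line's own median ratio, a choice made after seeing the data. It was then met by 40 replication genes and by 19% of all genes tested.

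**Figure D3:**
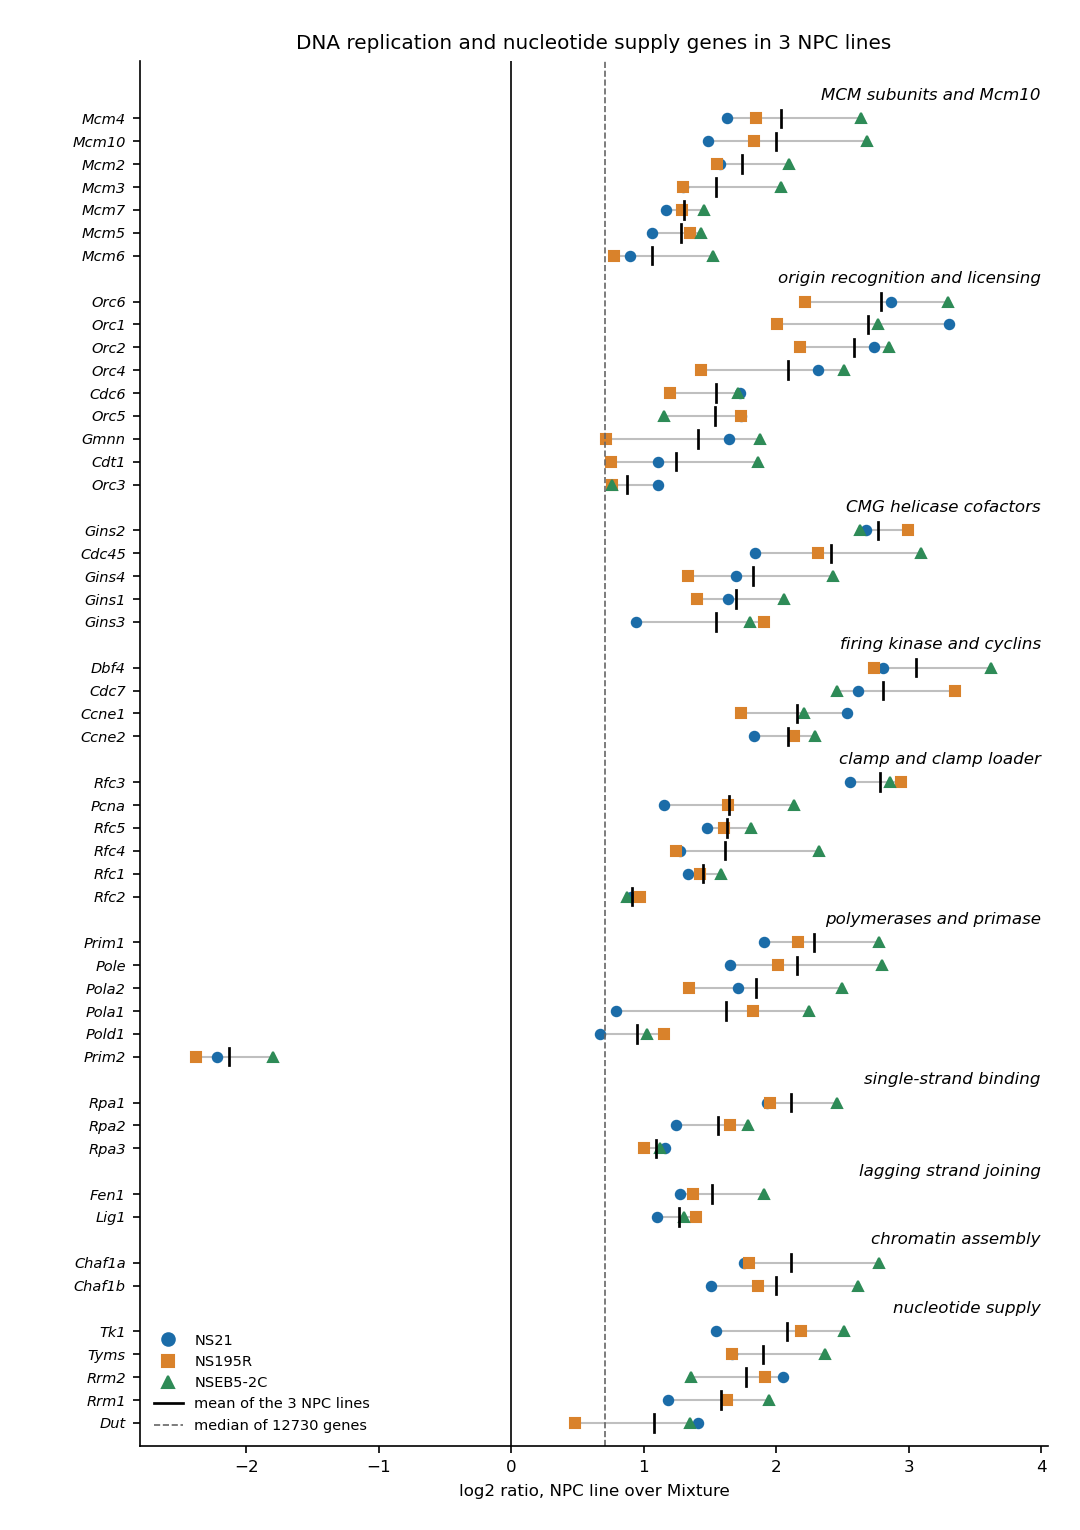
Log2 ratio of each NPC line to Mixture (x axis) for the 49 replication genes, grouped by role. Points are the 3 lines, the black tick is their mean, the solid line marks Mixture and the dashed line the median of 12730 genes well above background on all arrays. All points lie right of 0 but those of Prim2.

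Among the origin recognition and licensing genes, 9 of 9 had ratios above 0, with a median of 1.55 and no limma call. Orc6, a subunit of the recognition complex, had log2 levels, relative to each array's percentile 75, of 4.71 in NS21, 4.06 in NS195R, 5.14 in NSEB5-2C, against 1.84 in Mixture. Its mean log2 ratio was 2.79 (SE 0.59, limma adjusted p = 0.0896). All 3 lines stood well above the Mixture array, NS195R least. Orc1, the largest subunit, had levels of -0.05 in NS21, -1.35 in NS195R, -0.59 in NSEB5-2C, against -3.36 in Mixture, and a mean log2 ratio of 2.70 (SE 0.67). Orc2 followed at 2.59 (SE 0.47) and Orc4 at 2.09 (SE 0.61). The ratios of the other subunits were smaller, 1.54 (SE 0.45) for Orc5 and 0.88 (SE 0.38) for Orc3. Normexp background correction put Orc1 at 1.52 and Orc5 at 0.73, where quantile normalization put Orc1 at 3.31 and Orc5 at 2.18.

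The loading factor gene Cdt1 had levels of 4.09 in NS21, 3.74 in NS195R, 4.85 in NSEB5-2C, against 2.98 in Mixture. Gmnn, which encodes geminin, the inhibitor of CDT1, had 5.36 in NS21, 4.43 in NS195R, 5.60 in NSEB5-2C, against 3.72 in Mixture. In both genes NS195R was closest to Mixture, with log2 ratios of 0.76 for Cdt1 and 0.72 for Gmnn. Cdc6, the other loading factor gene, had ratios of 1.73 in NS21, 1.20 in NS195R, 1.71 in NSEB5-2C. NS195R was the lowest line in 7 of the 9 licensing genes and in none of them the highest, where it was lowest in 41% and highest in 28.9% of the measurable genes.

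The helicase genes Mcm2 to Mcm7 and Mcm10, which encodes a factor that aids helicase activation and is not a ring subunit, had 7 of 7 ratios above 0, with a median of 1.54. Limma called 0 of the 7, and 6 were higher at an unadjusted p under 0.05 (15.6% of all genes tested). Mcm4 had the largest ratio of the ring subunits, with levels of 4.72 in NS21, 4.94 in NS195R, 5.73 in NSEB5-2C, against 3.09 in Mixture and a mean log2 ratio of 2.04 (SE 0.58). Mcm6 had the smallest, with levels of 5.74 in NS21, 5.61 in NS195R, 6.36 in NSEB5-2C, against 4.84 in Mixture and a mean of 1.06 (SE 0.49). Mcm10 had ratios of 1.48 in NS21, 1.83 in NS195R, 2.68 in NSEB5-2C. NSEB5-2C was the highest line in 7 of these 7 genes, as in 35.3% of the measurable genes. Averaging all probes of a gene put Mcm4 at 0.93, the smallest ratio of the ring subunits, and Mcm2 was then the largest. One of the averaged Mcm4 probes was well above background on no array.

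Of the genes for the helicase cofactors, CDC45 and the 4 GINS subunits, Gins2 passed the test. Its log2 levels were 2.28 in NS21, 2.61 in NS195R, 2.24 in NSEB5-2C, against -0.39 in Mixture. The 3 lines lay within 0.36 of each other and far above Mixture, and Gins2 was 6.82-fold higher (log2 ratio 2.77, SE 0.38, adjusted p = 0.0414 by limma, in 3 of 3 lines). The other GINS subunits did not pass, with mean log2 ratios of 1.70 (SE 0.45) for Gins1, 1.55 (SE 0.58) for Gins3 and 1.82 (SE 0.60) for Gins4. Cdc45 had levels of -0.41 in NS21, 0.06 in NS195R, 0.84 in NSEB5-2C, against -2.26 in Mixture, a wider spread between lines, and a mean of 2.42 (SE 0.66, adjusted p = 0.124 by limma), or 1.65 with normexp.

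Genes of the firing kinase, its partner and cyclin E had the highest median of any role, 2.48, and 4 of 4 had ratios above 0. Dbf4, the regulatory partner of the kinase, had the largest ratio of all 49 genes as processed here, with levels of 1.26 in NS21, 1.19 in NS195R, 2.08 in NSEB5-2C, against -1.55 in Mixture and a mean log2 ratio of 3.06 (SE 0.55), an 8.33-fold ratio with a limma adjusted p of 0.0705. Cdc7, the kinase itself, had levels of 0.21 in NS21, 0.94 in NS195R, 0.05 in NSEB5-2C, against -2.41 in Mixture and a mean of 2.81 (SE 0.54, limma adjusted p = 0.0781). The lines ranked differently in these partners, with NSEB5-2C highest for Dbf4 and NS195R for Cdc7. The cyclin E genes had ratios of 2.16 (SE 0.49) for Ccne1 and 2.09 (SE 0.40) for Ccne2. The first place of Dbf4 depended on the setting. Averaging all probes of a gene, among them 1 Dbf4 probe well above background on no array, put Dbf4 at 1.86, and Orc6 was then the largest at 2.79. Orc6 was also the largest with normexp background correction, Orc1 with quantile normalization, and Cdc7 without NSEB5-2C. With normexp Cdc7 was at 1.89 and Ccne2 at 0.95.

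In the clamp and its loader 6 of 6 genes lay above Mixture, and Rfc3, a loader subunit, passed the test. Its levels were 0.46 in NS21, 0.84 in NS195R, 0.76 in NSEB5-2C, against -2.10 in Mixture, and it was 6.89-fold higher (log2 ratio 2.78, SE 0.38, adjusted p = 0.0413 by limma, in 3 of 3 lines). With normexp the log2 ratio was 1.98 and passed as well (limma adjusted p = 0.024). The remaining loader subunits had smaller ratios that did not pass, 1.45 (SE 0.35) for Rfc1, 0.92 (SE 0.34) for Rfc2, 1.62 (SE 0.65) for Rfc4 and 1.63 (SE 0.37) for Rfc5. Rfc2 was the most even gene of the 49, with levels of 4.78 in NS21, 4.85 in NS195R, 4.75 in NSEB5-2C, against 3.88 in Mixture. Pcna, the clamp, had levels of 5.09 in NS21, 5.57 in NS195R, 6.07 in NSEB5-2C, against 3.93 in Mixture, and a mean log2 ratio of 1.64 (SE 0.55).

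Polymerase and primase genes held the only gene below Mixture. Prim2, the large primase subunit, had levels of -2.26 in NS21, -2.42 in NS195R, -1.83 in NSEB5-2C, against -0.04 in Mixture. Each line lay under Mixture, NS195R farthest, and the mean log2 ratio was -2.13 (SE 0.43), with a limma adjusted p of 0.0839 that did not pass. Prim1, the small catalytic subunit that works in the same enzyme, had levels of 3.04 in NS21, 3.29 in NS195R, 3.91 in NSEB5-2C, against 1.13 in Mixture, and a mean of 2.28 (SE 0.52, limma adjusted p = 0.0992). Only 1 Prim2 probe was measurable. Its second probe was well above background on no array, and averaging both brought the Prim2 ratio to -0.75. With normexp background correction the ratio was -1.47 and passed limma (adjusted p = 0.0399).

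Pola1, the catalytic subunit of the polymerase that extends the primer, had the widest spread between lines of the 49 genes, with levels of 1.12 in NS21, 2.15 in NS195R, 2.58 in NSEB5-2C, against 0.33 in Mixture. NS21 stood apart from the other lines and nearest to Mixture. Pola2, its partner subunit, had ratios of 1.71 in NS21, 1.35 in NS195R, 2.50 in NSEB5-2C. Pole, for the catalytic subunit of polymerase epsilon, had a mean log2 ratio of 2.16 (SE 0.62), and Pold1, that of polymerase delta, 0.95 (SE 0.40). Averaging all probes put Pola2 at 1.18 and changed the log2 ratio of Pole by -1.15, and each of these averages held a probe well above background on no array. With normexp Pola2 was at 1.25.

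The 3 subunit genes of replication protein A, which coats single-stranded DNA, had mean ratios of 2.11 (SE 0.43) for Rpa1, 1.56 (SE 0.42) for Rpa2 and 1.09 (SE 0.34) for Rpa3. Fen1 and Lig1, which trim and seal the lagging strand, had 1.52 (SE 0.45) and 1.27 (SE 0.36). Chaf1a and Chaf1b, subunits of the factor that places histones on new DNA, had 2.11 (SE 0.62) and 2.00 (SE 0.61). Limma called none of these 7 genes, and each was higher at an unadjusted p under 0.05, as were 15.6% of all genes tested. NSEB5-2C was the highest line for Chaf1a, with levels of 2.42 in NS21, 2.46 in NS195R, 3.45 in NSEB5-2C, against 0.67 in Mixture.

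Nucleotide supply genes numbered 5, all above Mixture and none called, with a median of 1.77. Tk1, for thymidine salvage, had levels of 3.39 in NS21, 4.04 in NS195R, 4.36 in NSEB5-2C, against 1.85 in Mixture, and a mean log2 ratio of 2.08 (SE 0.55). Tyms, for thymidylate synthesis, had 1.90 (SE 0.50). The ribonucleotide reductase subunit genes had similar means, 1.59 (SE 0.48) for Rrm1 and 1.77 (SE 0.47) for Rrm2, but opposite orders of the lines. Rrm1 had levels of 3.63 in NS21, 4.08 in NS195R, 4.39 in NSEB5-2C, against 2.45 in Mixture. Rrm2 had 3.17 in NS21, 3.04 in NS195R, 2.48 in NSEB5-2C, against 1.12 in Mixture, so NSEB5-2C was the highest line for Rrm1 and the lowest for Rrm2. The Rrm1 ratio was 0.76 when its second probe, well above background on no array, was averaged in. Dut, which removes dUTP, had the smallest ratio of these genes, 1.08 (SE 0.57), with levels of 4.92 in NS21, 3.99 in NS195R, 4.86 in NSEB5-2C, against 3.51 in Mixture.

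The order of the lines was uneven. NSEB5-2C was the highest line in 34 of 49 genes (69.4%), NS21 in 8 and NS195R in 7. Over 12730 genes well above background on all arrays NSEB5-2C was highest in 35.3%. The median log2 ratio of the replication genes was 1.57 in NS21, 1.64 in NS195R, 2.14 in NSEB5-2C, where the medians of the 12730 genes were 0.78, 0.69 and 0.69. Without NSEB5-2C the median over the replication genes was 1.53. NSEB5-2C was also highest in 71.8% of 39 kinetochore and mitosis genes, in 78.9% of 19 other nucleotide enzymes, in 57.5% of 40 other replication fork genes and in 50% of 14 housekeeping genes.

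Differences between the lines were tested with a single array a line. Limma compared each line with the other lines with 1 residual degree of freedom and called 0 replication genes in NS21, NS195R or NSEB5-2C, with smallest adjusted p-values of 0.996, 0.636 and 0.913. It also called 0% of all genes tested for each line, and 0 replication genes had an unadjusted p under 0.05 for any line, where 5.71%, 10.5% and 5.82% of all genes tested had one for NS21, NS195R and NSEB5-2C. Without a test, 2 genes were at least 2-fold from both other lines as processed here, and which genes these were changed with the processing. Pola1 was below in NS21, as were 5.86% of all genes tested, and 8.88% were above there. Rfc4 was above in NSEB5-2C, as were 6.92% of all genes tested, and 9.33% were below. Rfc4 had levels of 2.83 in NS21, 2.80 in NS195R, 3.88 in NSEB5-2C, against 1.56 in Mixture. NS195R had 0 such replication genes, where 12.6% of all genes tested were above and 7.37% below. Highest and lowest line were at least 2-fold apart in 15 of the 49 genes, against 52.3% of all genes tested and 41.5% of those measurable on all arrays. The median distance between highest and lowest line was 0.75 on the log2 scale for the replication genes, against 0.83 for measurable genes.

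**Figure D4:**
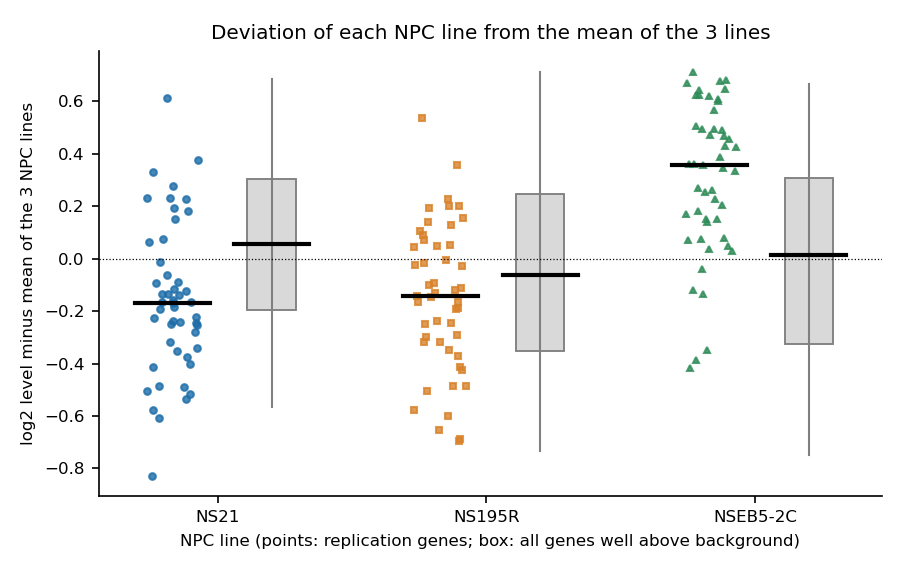
Log2 level of each NPC line minus the mean of the 3 lines (y axis) for the 49 replication genes (points, black bar at their median) and for the 12730 genes measurable on all arrays (box for the quartiles, whisker for percentiles 10 to 90). The replication genes have a median of -0.17 in NS21, -0.14 in NS195R, 0.36 in NSEB5-2C.

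Repeat probes were compared within a gene. Of the 49 genes 20 had more than 1 probe, and 12 had at least 2 probes well above background on all arrays. In 12 of these 12 the probes had ratios in the same direction. Their ratios differed by a median of 0.17 on the log2 scale, and at most by 0.72, in Orc4. The 29 genes with 1 probe could not be compared in this way, among them Gins2 and Rfc3, which passed limma. Of 78 probes 63 were well above background on all arrays, with 62 ratios above 0 and 1 below 0, that of Prim2. The scanner's own modelled error was between 10% and 14.4% of the signal for the probes used. Its protocol sets an error multiplier of 0.1, so the 10% is a setting and not a measured precision.

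**Figure D5:**
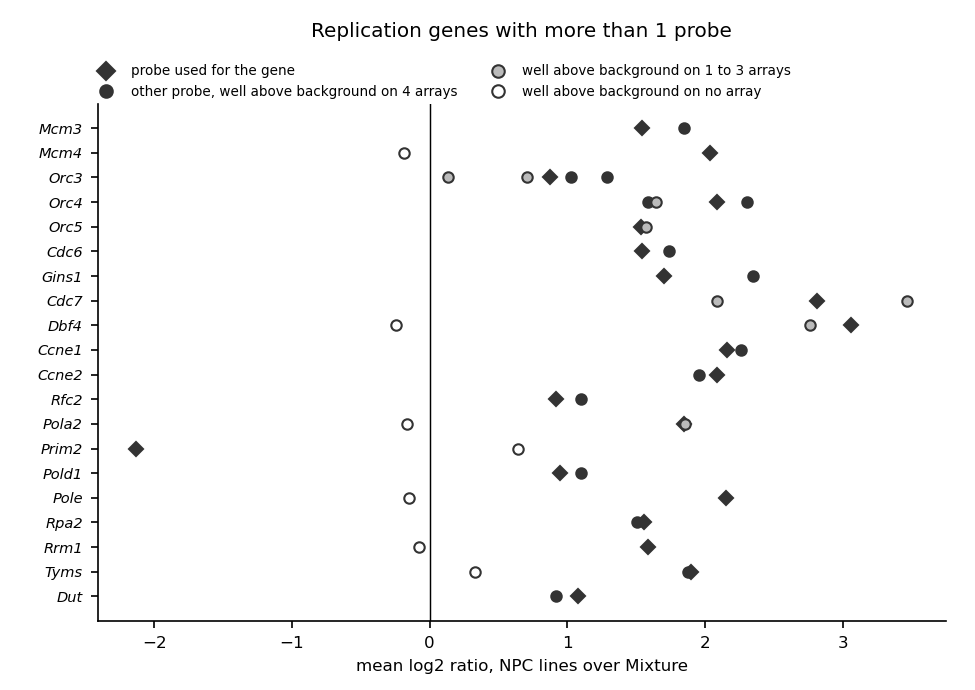
Mean log2 ratio of the NPC lines to Mixture (x axis) for every probe of the 20 replication genes with more than 1 probe. Diamonds are the probes used, and fill shows on how many arrays a probe was well above background. Dark probes of 1 gene lie on the same side of 0, at most 0.72 apart, and open probes scatter around 0.

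Related genes were described by the same measures, and here too limma called 0 genes without any 1 of the lines. The other replication fork genes, 41 tested, had a median log2 ratio of 1.83. Limma called 2 higher (0.948% of all genes tested) and 0 lower (8.91%). These were Exo1, an exonuclease, with levels of 2.83 in NS21, 2.69 in NS195R, 3.37 in NSEB5-2C, against -0.45 in Mixture and a mean ratio of 3.41 (SE 0.47, adjusted p = 0.0413), and Pole2, a polymerase epsilon subunit, at 2.26 (SE 0.34, limma adjusted p = 0.0487). Next came the chromatin remodeller gene Hells at 2.76 (SE 0.89), the checkpoint gene Topbp1 at 2.59 (SE 0.65) and the fork protection gene Tipin at 2.53 (SE 0.54). The lowest were the polymerase delta subunit genes Pold3 at 0.62 (SE 0.44) and Pold4 at 0.08 (SE 0.51). At an unadjusted limma p under 0.05, 31 of the 41 were higher, against 15.6% of all genes tested.

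The other nucleotide enzymes, 20 tested, had a median of 1.31, with 0 called by limma. At an unadjusted limma p under 0.05, 8 were higher (15.6% of all genes tested). Dctd, a deaminase on the way to thymidylate, was not well above background in Mixture, and its NPC mean was at least 15.5-fold above (limma adjusted p = 0.064). Nme1, a nucleoside diphosphate kinase, had 2.89 (SE 0.44), Cad, which starts pyrimidine synthesis, 2.71 (SE 0.49), and Dtymk, thymidylate kinase, 2.62 (SE 0.48). At the other end were Samhd1, which breaks down deoxynucleotides, at -1.36 (SE 0.98), and Rrm2b, the reductase subunit used outside S phase, at -0.26 (SE 0.43), a sign that turned with the scaling.

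The E2F and RB family, 16 genes, had a median of 1.39 and no limma call. By unadjusted limma p under 0.05 it had 5 higher genes (15.6% of all genes tested) and 1 lower gene (15.4%). Tfdp1, the E2F partner, had 2.51 (SE 0.44), E2f5 2.25 (SE 0.56), E2f3 2.23 (SE 0.34) and E2f7 2.05 (SE 0.42). E2f2, an activating family member, had the lowest ratio, -2.57 (SE 0.43), with levels of 1.17 in NS21, 1.78 in NS195R, 1.42 in NSEB5-2C, against 4.03 in Mixture (limma adjusted p = 0.0624). Rbl2, of the RB family, had -1.30 (SE 0.87).

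Genes of the kinetochore and mitosis, the list most like replication as a part of the cell cycle, had a median of 2.15 over 40 tested. Limma called 4 of them higher, where it called 2 of 49 replication genes and 0.948% of all genes tested. Zwilch had a ratio of 3.95 (SE 0.44, adjusted p = 0.0271), Ska3 3.95 (SE 0.36, adjusted p = 0.0185) and Cenph 3.01 (SE 0.44, adjusted p = 0.0463), all by limma. Ttk, a spindle checkpoint kinase, was not well above background in Mixture and had at least 12.4 times as high a level in the NPC lines (limma adjusted p = 0.0484). Bub1 had an 8.57-fold ratio and did not pass (limma adjusted p = 0.0778). The proliferation marker Mki67 had the smallest ratio of this list, 0.65 (SE 0.56), with levels of 3.83 in NS21, 4.82 in NS195R, 4.43 in NSEB5-2C, against 3.72 in Mixture. Housekeeping genes, 14 tested, had a median of 0.27. Their mean log2 ratios were widely spread, from -4.15 to 2.24, and the highest lay above the replication gene median of 1.70.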

How the data were processed

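Total RNA (0.25 ug per sample) was labelled with Cy3 and hybridised to 4 arrays on 1 slide, scanned together, which leaves no batch to test. Agilent Feature Extraction 9.5.3.1 made the spot intensity values, per the file headers, with background subtracted and no scaling between arrays. The deposited value table held the same intensity at all 45018 features. Columns of other samples in it numbered 0. Saturated spots numbered 0.

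From the log2 of each processed signal the percentile 75 of that array over its 43379 non-control spots was subtracted. Flagged outlier spots were left out and repeated spots averaged. This left 19 probes with a missing value, which were not used. Symbols were updated by RefSeq transcripts for 22951 probes, listed transcripts for 124, symbols for 6582 and synonyms for 3077 (GRCm38.p6), and 8440 kept the name in the files. The sources used here do not name the build of the probes. One probe per gene was kept, that with the highest mean. Of 27660 genes 19823 were well above background on at least 1 array and were tested with limma 3.58.1 in R 4.3.3 (lmFit, eBayes, two-sided, Benjamini-Hochberg over all genes tested). NPC lines against Mixture left 2 residual degrees of freedom, to which the prior added 1.335. Nothing says that the samples are more than 1 culture each, so p-values measure the spread between these arrays. The script was tested on simulated data. The number of arrays limits the precision.

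The genes and lists were chosen with earlier results of these data known. Every one of the 49 genes could be named. Of the other lists the 4 highest, the 2 lowest and those past limma were named. A bound compares the bright group's mean with, on the Mixture array, the higher of the probe's own signal and the lowest signal well above background. Alternatives covered background correction (normexp, offset 50), scaling, filter, probe choice, prior, the value table, the size rule and leaving out each line. Promoter windows are RefSeq's. Windows for the other 9 genes were not used here.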

Additional observations from a re-analysis of the deposited data

How the results depend on the processing

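The direction of all 49 replication genes was the same under each of the 11 alternatives, but sizes moved. Ratios moved by over 1.5-fold in 8 genes with normexp, 6 with the mean of all probes, 3 with quantile normalization, all 49 with median scaling, which raised each by the same amount, and 0 under the other alternatives. Without any 1 line limma called 0 replication genes and 0 genes in all, higher or lower, while 16 to 17 replication genes and 1499 to 2363 genes in all were higher at an unadjusted p under 0.05. With normexp, limma called 8 replication genes higher and 1 lower (Prim2), with 974 of all genes higher and 1988 lower, against 188 and 1767 as reported. Quantile normalization gave 5 replication genes and 587 higher against 1628 lower genes in all. An intensity trend in eBayes gave 4 and 473, and no filter gave 525 higher genes in all. Testing only genes well above background on all arrays gave 0 replication genes and 0 genes in all in either direction, where 38 and 3085 were higher at an unadjusted p under 0.05. Median scaling put the median log2 ratio of the replication genes at 2.45 and that of measurable genes at 1.46, 16 genes at least 2-fold from both other lines and NSEB5-2C highest in 43 of 49 genes, and in 54.3% of all measurable genes against 35.3% as reported. Quantile normalization left 1 such 2-fold gene, Pola1 in NS21. With normexp the 2-fold genes were Rfc4 and Chaf1a, both above in NSEB5-2C, and Pola1 was not among them. Genes meeting the 1.5-fold rule numbered 40 to 48 over all alternatives. Leaving out 1 line put Pold4 between -0.17, without NS195R, and 0.25. Rrm2b turned to 0.067 with normexp, 0.58 with quantile normalization and 0.49 with median scaling. The cause was not tested. No paired analysis was possible because Mixture is 1 array and the numbers of the lines mark no shared batch.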

Other observations

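Pttg1, which encodes securin, the inhibitor of sister chromatid separation, went against the order of the lines seen in most replication genes. Its log2 levels were 4.24 in NS21, 4.41 in NS195R, 1.82 in NSEB5-2C, against 2.78 in Mixture. NSEB5-2C was thus the only line below Mixture, and the mean log2 ratio was 0.71 (SE 1.34, limma adjusted p = 0.754). It was named by the rule for the lowest genes of the kinetochore and mitosis list.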
